A study of Mus musculus with 9 samples.

Results

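The genes described here are the Wnt ligands, their Frizzled receptors and Lrp co-receptors, the secreted inhibitors of the Dkk, Sfrp, Frzb and Wif1 kind, the R-spondins, and the target Axin2 and the nuclear effector Lef1. They were chosen by symbol. A row of the deposited table counted when its annotation gave exactly 1 symbol that began with Wnt, Fzd, Dkk or Sfrp and a digit, or was 1 of 11 further names, and the row with the highest mean over the 9 arrays stood for its gene. This gave 48 of the 22180 genes tested: 19 ligands, 10 Frizzled receptors, 2 co-receptors, 10 secreted inhibitors, 4 R-spondins, Axin2, Lef1, and Fzd10os, an antisense RNA gene that the letters of its symbol brought in. Tcf7 has no row with a single symbol in the annotation used here.

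Corneas of 3 groups of mice were compared on single-colour expression arrays, with 3 pools in each group. Each pool held 10 corneas from 5 mice. Mutant mice carried Dstn corn1, an allele of the gene for destrin, a protein that takes apart actin filaments. The rescued group carried Dstn corn1 and in addition a genetic ablation of Srf, the gene for serum response factor, in the corneal epithelium. The labels do not say what drives that ablation. WT was the third group. All groups, WT included, received intraperitoneal doxycycline from postnatal day 28 to postnatal day 58, were collected at postnatal day 58, and had a mixed background of FVB, Swiss Black, 129, C57BL6/J and A.BY. Values are log2 intensities, and a difference between groups is on the same scale. A log2 level of 6.77 was the median of all rows, and 18 of the 48 genes had a mean over the arrays below the median row. Whether genes near or below it were above background is not known. A fold is written "at least" where only the mean of the lower group lay below it, and no fold is given where both means did.

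Wnt proteins are secreted, lipid-modified signals. On a receiving cell they bring a Frizzled receptor together with Lrp5 or Lrp6, which stops the destruction complex of Axin and APC from removing beta-catenin, and beta-catenin then switches on target genes with TCF and LEF factors. Dkk1, Dkk2 and Dkk4 act on the Lrp co-receptors, Sfrp proteins, Frzb and Wif1 bind the ligands themselves, and R-spondins keep Frizzled receptors on the cell surface. Dkk3 is grouped with the inhibitors here by its symbol. In the eye, restraint of this pathway is part of keeping the corneal epithelium distinct from skin, and mice that lack Dkk2 form skin-like epithelium in place of cornea.

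The upstream sequences of 5 genes are shown. Between mutant and WT, Wnt2 had the largest fall of the 48 genes and Frzb the largest rise. Wnt3a and Wnt9a are shown as neighbours in the genome that moved in opposite directions, and Dkk1 for the motif found in its upstream sequence. Each run is the 250 bases before the annotated start, 5′ to 3′ on the strand of the gene, from RefSeq (GRCm38.p6). Capitals mark a match, on either strand, to 1 of 3 motifs that were searched. These were the TCF/LEF motif CTTTGAT, its variant CTTTGAA, and the CArG box, which SRF binds. The positions are chr11:59290752-59291001 (minus strand) for Wnt3a, chr11:59306680-59306929 (plus strand) for Wnt9a, chr6:18030446-18030695 (minus strand) for Wnt2, chr19:30549497-30549746 (minus strand) for Dkk1 and chr2:80447397-80447646 (minus strand) for Frzb.
Wnt3a: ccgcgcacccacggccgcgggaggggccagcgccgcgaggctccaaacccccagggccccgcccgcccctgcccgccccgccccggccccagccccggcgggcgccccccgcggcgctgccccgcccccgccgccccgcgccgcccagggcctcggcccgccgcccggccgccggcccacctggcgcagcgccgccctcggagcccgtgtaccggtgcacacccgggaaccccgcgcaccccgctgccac
Wnt9a: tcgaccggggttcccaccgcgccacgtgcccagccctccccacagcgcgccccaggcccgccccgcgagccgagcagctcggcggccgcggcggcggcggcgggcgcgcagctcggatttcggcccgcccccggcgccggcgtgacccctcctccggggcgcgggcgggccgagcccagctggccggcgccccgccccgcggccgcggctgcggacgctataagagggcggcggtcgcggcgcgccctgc
Wnt2: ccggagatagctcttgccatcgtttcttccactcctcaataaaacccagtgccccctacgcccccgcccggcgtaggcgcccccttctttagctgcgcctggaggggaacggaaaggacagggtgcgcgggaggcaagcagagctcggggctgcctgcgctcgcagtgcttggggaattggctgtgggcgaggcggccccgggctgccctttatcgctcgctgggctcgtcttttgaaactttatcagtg
Dkk1: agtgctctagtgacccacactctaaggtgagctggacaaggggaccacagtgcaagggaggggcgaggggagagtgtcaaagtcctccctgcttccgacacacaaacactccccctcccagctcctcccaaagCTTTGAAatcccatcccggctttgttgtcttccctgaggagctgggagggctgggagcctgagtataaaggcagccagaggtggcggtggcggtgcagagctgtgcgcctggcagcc
Frzb: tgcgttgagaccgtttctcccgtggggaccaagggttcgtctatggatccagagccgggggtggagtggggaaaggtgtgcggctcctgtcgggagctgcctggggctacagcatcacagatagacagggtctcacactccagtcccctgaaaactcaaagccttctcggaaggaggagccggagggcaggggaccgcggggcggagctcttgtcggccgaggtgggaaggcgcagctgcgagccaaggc
The Wnt3a and Wnt9a stretches were 87.6% and 84.4% G or C and held 41 and 48 CG pairs. Those of Wnt2, Dkk1 and Frzb were 63.6%, 60.8% and 64.4% G or C with 20, 6 and 16 CG pairs. RefSeq promoters were found for 31 of the 48 genes, 37 in all, with a median of 66.8% G or C, against 52.4% over 32851 promoters. CTTTGAA lay in 1 of the 37, that of Dkk1, 117 to 111 bases before the start, and in 4.46% of all promoters. CTTTGAT lay upstream of Wnt5b and Wnt11 and in 3.21% of all promoters. A CArG box was found upstream of Lef1 alone among these genes, and in 1.47% of all promoters.

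Mutant corneas had lower levels of 6 Wnt ligands, 3 Frizzled receptors and 4 secreted inhibitors than WT corneas, and higher levels of the ligand Wnt9a, the receptor Fzd1, the co-receptor Lrp5 and the inhibitors Frzb and Wif1. The largest fall was in Wnt2 and the largest rise in Frzb. At an adjusted p under 0.05 this made 18 of 48 genes, or 37.5%, against 31.6% of all genes tested. Of the 48, 13 were lower (27.1%, against 16.5% of all genes) and 5 were higher (10.4%, against 15.1%). The median log2 difference of the 48 was −0.04 and that of all genes −0.02. Pools of the mutant and WT groups did not overlap in 25 of the 48, against 44.7% of all genes.

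In rescued corneas, 7 genes were higher and 4 lower than in the mutant. These 11 were 22.9% of the 48, against 13.3% of all genes, with 14.6% higher (6.46% of all genes) and 8.33% lower (6.88%). Groups did not overlap in 21 of the 48, against 32.2% of all genes. Between rescued and WT corneas 6 of the 48 differed, 4 lower and 2 higher in the rescued. That was 12.5%, against 13.7% of all genes, with 8.33% lower (7.43% of all genes) and 4.17% higher (6.28%). The comparisons share pools, so each one's values are given side by side. The count of 11 between rescued and mutant was 5 without mutant replicate 1, 5 without mutant replicate 3, 6 without rescued replicate 2 and 6 without rescued replicate 3, and the count of 6 between rescued and WT was 3 without rescued replicate 2.

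**Figure D1:**
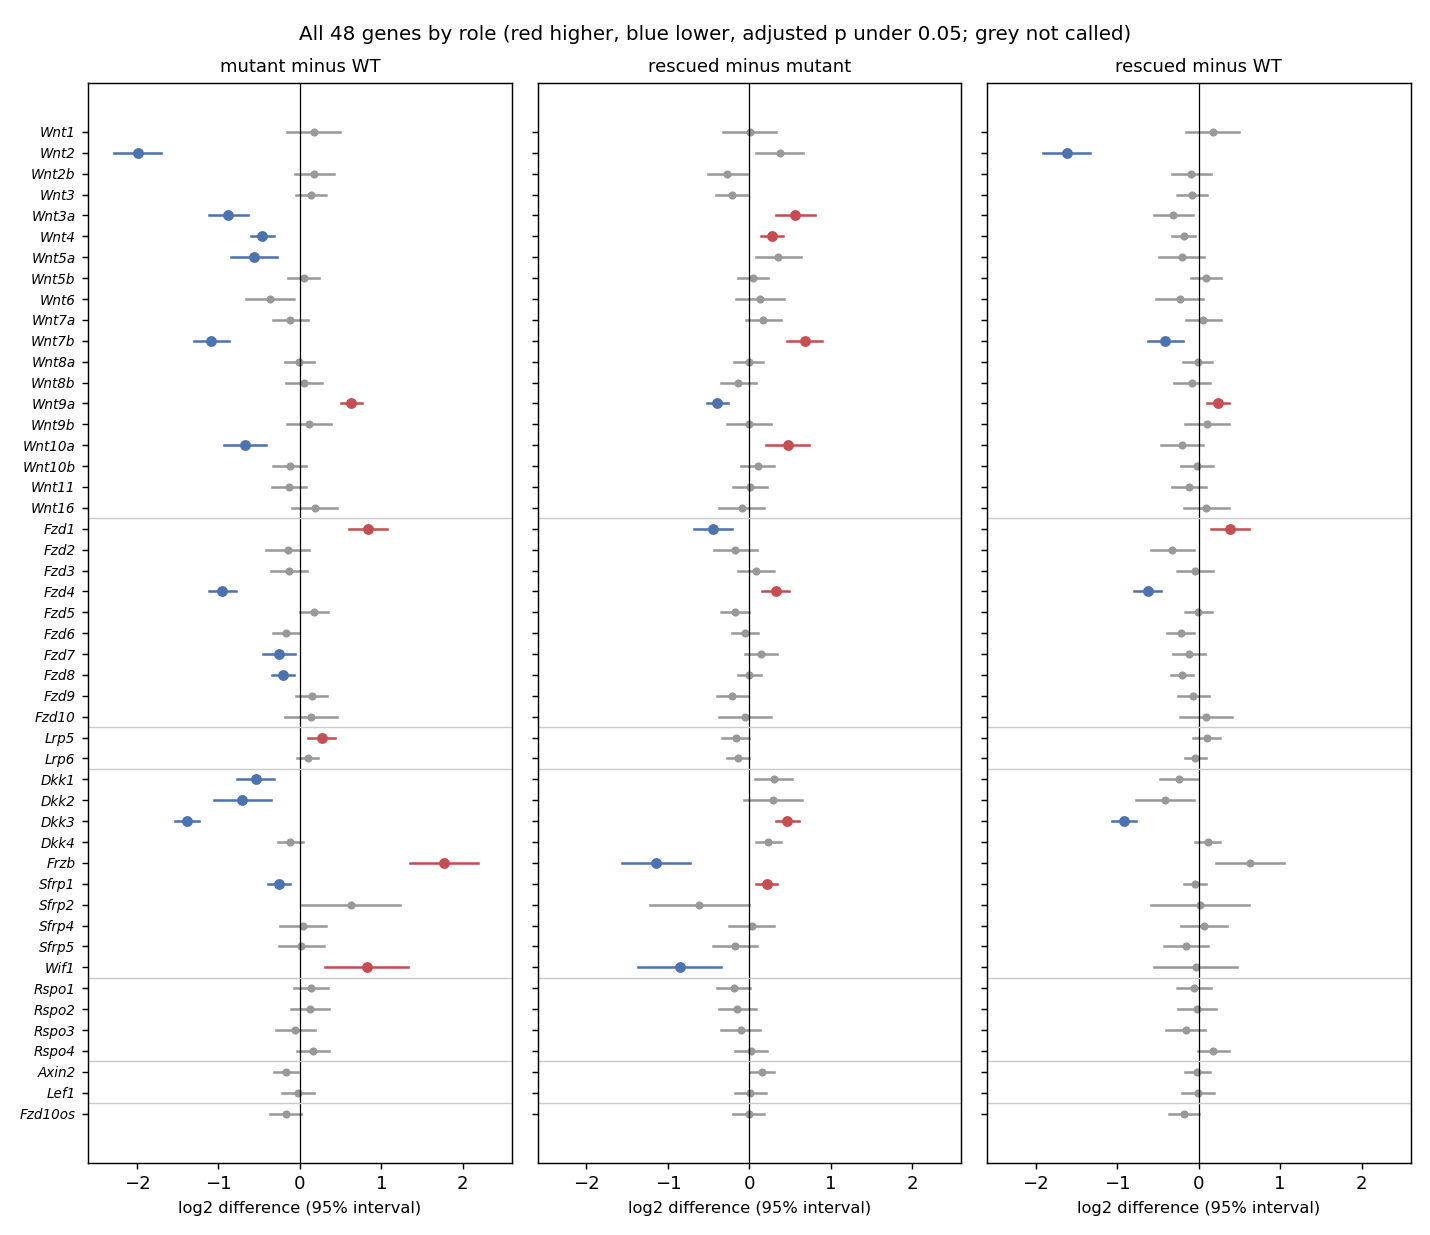
Log2 difference (horizontal axis) with its 95% interval from limma for each of the 48 genes (vertical axis, grouped by role, roles parted by grey lines) in the 3 comparisons. Red points are higher and blue points lower at an adjusted p under 0.05, and grey points were not called; 18 genes are coloured in the left panel, 11 in the middle and 6 in the right.

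As a check of the labels, Dstn was at 12.58, 12.55 and 12.59 in WT, 5.55, 5.80 and 5.54 in mutant and 5.61, 5.62 and 5.63 in rescued pools, and Srf was at 9.23, 8.98 and 9.17 in WT, 10.77, 10.72 and 10.55 in mutant and 9.14, 9.45 and 8.45 in rescued pools. Markers of other cell types moved between the groups too, and a whole cornea array cannot tell fewer cells of a type from less RNA per cell. Corneal epithelial markers were lower in the mutant than in WT for 5 of 6 genes and higher for 1 (Krt14). Their mean list level over the pools was 12.94 to 12.97 in WT, 12.47 to 12.56 in mutant and 13.01 to 13.07 in rescued corneas. Krt14 alone of them was called between rescued and WT, at 0.96 higher in log2 units. The differences of the others lay between −0.24 (Pax6) and 0.03 (Klf4). Ranges of the mean list level over the pools, in the order WT, mutant and rescued, follow in brackets. Corneal endothelial markers were lower in the mutant for 6 of 6 (10.63 to 10.72, 10.15 to 10.31 and 10.39 to 10.48). Blood endothelial markers were higher for 7 of 8 and lower for 1 (6.62 to 6.66, 8.04 to 8.57 and 7.61 to 7.96), and pericyte markers higher for 3 of 6 and lower for 1 (7.70 to 7.80, 9.02 to 9.35 and 8.53 to 8.80). Macrophage markers were higher for 7 of 8 and lower for 1 (7.41 to 7.54, 8.21 to 8.86 and 8.12 to 8.57). T cell markers were higher for 5 of 7 (6.08 to 6.18, 6.71 to 7.13 and 6.38 to 6.78) and conjunctival markers for 7 of 8 (7.84 to 8.06, 9.72 to 10.08 and 8.97 to 9.61). Of 8 keratocyte and fibroblast markers 1 was higher and 2 were lower (10.64 to 11.10, 10.88 to 11.26 and 10.99 to 11.06). Lens markers were lower for 4 of 8 (8.85 to 9.18, 7.91 to 8.67 and 7.76 to 8.04), iris and pigment markers for 2 of 7 (6.37 to 6.46, 6.13 to 6.34 and 6.18 to 6.21), and 1 of 6 nerve markers was higher (7.02 to 7.17, 7.13 to 7.26 and 7.10 to 7.26). The part of any of these cell types in the differences of the Wnt genes was not tested. The labels give no sex for the mice. Expression from the Y chromosome, averaged over 3 genes, ranged from 5.15 to 9.77 and was spread unevenly over the groups. WT replicates 1 and 3 (5.34 and 5.15) lay below every mutant pool (7.78, 9.77 and 8.41) and every rescued pool (7.16, 9.11 and 8.89). WT replicate 2 did not (9.77). Sex makeup may therefore differ between WT and both groups with the Dstn mutation. A fit with Y-linked expression as a covariate called 15 of the 48 genes between mutant and WT. WT replicate 2 and mutant replicate 2 had the same Y-linked level, 9.77. Their levels of Xist, another sex-linked gene, were 11.76 and 6.12. Y-linked expression may therefore not follow sex makeup, and this fit cannot say which calls remain once sex is allowed for.

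Of the 19 ligands, 6 were lower and 1 was higher in the mutant than in WT corneas, together 36.8%, near the 31.6% of all genes called. Wnt2, a ligand best known from lung development, was at 8.58, 8.32 and 8.35 in the WT pools, 6.26, 6.52 and 6.49 in the mutant pools and 6.70, 7.07 and 6.62 in the rescued pools. Every mutant and rescued pool lay more than 1 log2 unit below every WT pool. Wnt2 was at least 3.98-fold lower in the mutant than in WT (log2 difference −1.99, SE 0.13, adjusted p = 3.81e-06) and 3.08-fold lower in the rescued than in WT (log2 difference −1.62, adjusted p = 8.87e-05). The rescued mean of 6.80 lay just above the median of all rows, 6.77, and rescued replicates 1 and 3 lay below that median. The rescued pools all lay above the mutant pools, but the difference of 0.37 did not pass the test (95% interval 0.08 to 0.66, adjusted p = 0.0924). Wnt2 was thus called against WT in both groups that carry the Dstn mutation.

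Wnt7b, a ligand of epithelia that also takes part in the regression of fetal eye vessels, was at 9.14, 9.03 and 9.03 in WT, 8.0, 7.98 and 7.96 in mutant and 8.45, 8.67 and 8.85 in rescued pools. The 3 groups did not overlap. It was 2.12-fold lower in the mutant than in WT (SE 0.09 in log2 units, adjusted p = 2.28e-05), 1.6-fold higher in rescued than in mutant (SE 0.09, adjusted p = 0.00149) and 1.33-fold lower in rescued than in WT (SE 0.09, adjusted p = 0.0199). Wnt3a, a ligand that signals through beta-catenin, was at 8.52, 8.55 and 8.59 in WT, 7.69, 7.52 and 7.82 in mutant and 8.07, 8.20 and 8.46 in rescued pools, again with no overlap between the groups. Wnt3a was 1.84-fold lower in the mutant (SE 0.11, adjusted p = 0.000173) and 1.48-fold higher in the rescued than in the mutant (SE 0.11, adjusted p = 0.00746); between rescued and WT its difference was −0.31 (adjusted p = 0.0842). The Wnt7b call between rescued and WT was lost without WT replicate 1 or rescued replicate 2 (adjusted p from 0.0608 to 0.0707).

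Wnt10a, a ligand of teeth, hair and other ectodermal organs, was at 8.67, 8.81 and 8.73 in WT, 8.01, 8.18 and 8.0 in mutant and 8.25, 8.62 and 8.73 in rescued pools. The mutant pools lay below all others, while the rescued pools overlapped WT. Wnt10a was 1.59-fold lower in the mutant than in WT (SE 0.12 in log2 units, adjusted p = 0.00151) and 1.38-fold higher in rescued than in mutant corneas (SE 0.12, adjusted p = 0.0264). Wnt4, a ligand known from kidney and ovary formation, was at 11.03, 10.94 and 10.93 in WT, 10.51, 10.49 and 10.51 in mutant and 10.70, 10.82 and 10.82 in rescued pools. The groups did not overlap, with the rescued pools between the others. It was 1.38-fold lower in the mutant than in WT (SE 0.06, adjusted p = 0.000335) and 1.21-fold higher in rescued than in mutant (SE 0.06, adjusted p = 0.0166). Wnt5a, the ligand of beta-catenin independent signalling, was at 9.54, 9.48 and 9.13 in WT, 8.94, 8.61 and 8.90 in mutant and 9.15, 9.11 and 9.26 in rescued pools, and WT replicate 3 stood below the other WT pools. Wnt5a was 1.48-fold lower in the mutant than in WT (SE 0.12, adjusted p = 0.00619), and its difference of 0.35 between rescued and mutant did not pass the test (95% interval 0.08 to 0.63, adjusted p = 0.0937). Between rescued and mutant the Wnt10a call was lost without mutant replicate 1 or 3 or rescued replicate 2 or 3 or in a fit of only the 6 arrays compared (adjusted p from 0.0602 to 0.0901), and the Wnt4 call without mutant replicate 1 or 3 or rescued replicate 2 or 3 (adjusted p from 0.0509 to 0.0647).

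Wnt9a, a ligand of joint formation, was the 1 ligand that rose. Its levels were 9.03, 8.98 and 9.03 in WT, 9.71, 9.61 and 9.62 in mutant and 9.21, 9.27 and 9.27 in rescued pools, with all 3 groups apart. Wnt9a was 1.55-fold higher in the mutant than in WT (SE 0.06 in log2 units, adjusted p = 3.09e-05), 1.31-fold lower in rescued than in mutant (SE 0.06, adjusted p = 0.00195) and 1.18-fold higher in rescued than in WT (SE 0.06, adjusted p = 0.0247). In GRCm38.p6 no other protein-coding gene lies between Wnt9a and Wnt3a on chromosome 11, whose upstream sequences are shown above, so this is a neighbouring pair of which the members moved in opposite directions. There were 4 such neighbouring pairs of ligands. In the pair of Wnt6 and Wnt10a, Wnt10a was called and Wnt6 had a mutant minus WT difference of −0.37 (95% interval −0.66 to −0.08, adjusted p = 0.0576). Neither member was called in the pairs of Wnt3 with Wnt9b and Wnt1 with Wnt10b. The Wnt9a call between rescued and WT was lost without WT replicate 1, 2 or 3 or rescued replicate 2 or 3 or with the replicate block (adjusted p from 0.0524 to 0.0839).

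The other 12 ligands were not called in any comparison: Wnt1, Wnt2b, Wnt3, Wnt5b, Wnt6, Wnt7a, Wnt8a, Wnt8b, Wnt9b, Wnt10b, Wnt11 and Wnt16. Their levels ran from 5.41 to 9.01 over all arrays. Their mutant minus WT differences lay between −0.37 (Wnt6) and 0.18 (Wnt16), and no 95% interval reached beyond −0.66 or 0.49. Wnt11, at 8.90, 9.01 and 8.65 in WT, 8.81, 8.70 and 8.65 in mutant and 8.74, 8.69 and 8.77 in rescued pools, was well above the median of all rows, and its difference between mutant and WT was −0.13 (95% interval −0.34 to 0.08, adjusted p = 0.337). Wnt7a, a ligand tied to corneal epithelial identity, was near the median of all rows at 6.62, 6.90 and 7.0 in WT, 6.74, 6.75 and 6.68 in mutant and 6.79, 6.97 and 6.93 in rescued pools. Its difference was −0.12 (95% interval −0.33 to 0.10).

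**Figure D2:**
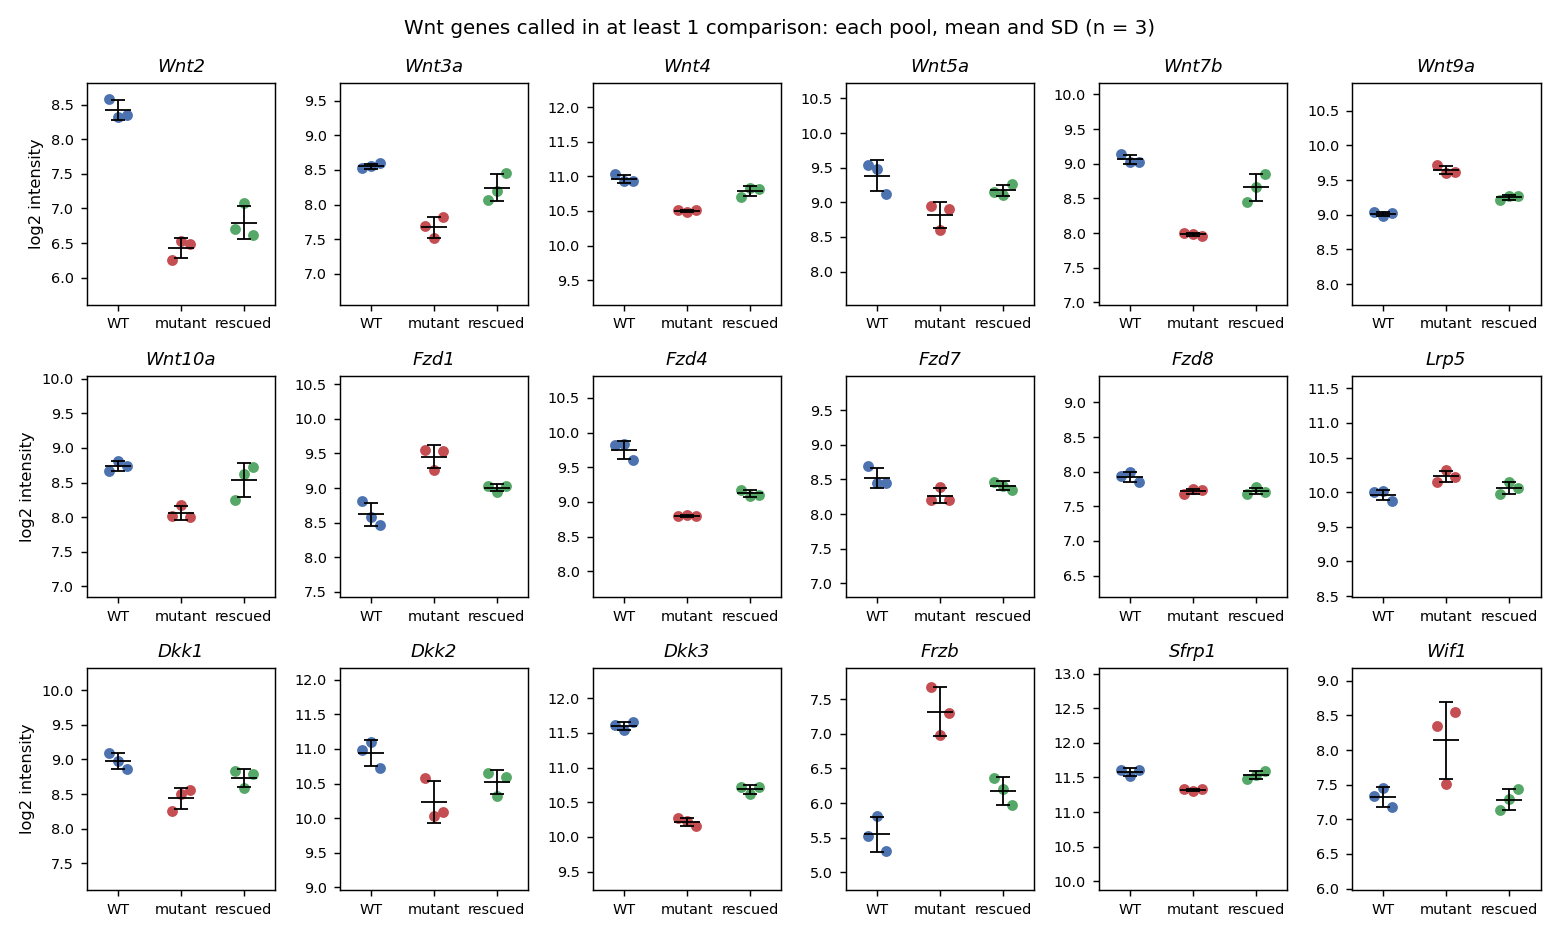
Log2 intensity (vertical axis, each panel spanning 3.2 units) of the 18 genes called in at least 1 comparison, by group (horizontal axis). Points are pools, black lines the mean and SD of 3 pools; in Wnt2 the rescued points lie near the mutant ones, in Wnt7b and Wnt9a between the other groups, and in Wif1 mutant replicate 2 lies apart from the other mutant pools.

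In the mutant, 3 of the 10 Frizzled receptors fell and 1 rose, together a share near the 31.6% of all genes called. Fzd4, the receptor through which norrin acts on retinal vessels, was at 9.82, 9.83 and 9.60 in WT, 8.79, 8.81 and 8.80 in mutant and 9.18, 9.09 and 9.11 in rescued pools. The groups did not overlap. Fzd4 was 1.93-fold lower in the mutant than in WT (log2 difference −0.95, SE 0.07, adjusted p = 1.15e-05), 1.25-fold higher in rescued than in mutant (adjusted p = 0.0186) and 1.55-fold lower in rescued than in WT (adjusted p = 0.000693). Fzd1, a receptor for ligands of the beta-catenin branch, was at 8.81, 8.58 and 8.47 in WT, 9.55, 9.26 and 9.54 in mutant and 9.03, 8.95 and 9.03 in rescued pools, also with no overlap. It was 1.78-fold higher in the mutant than in WT (log2 difference 0.83, SE 0.10, adjusted p = 0.000215), 1.36-fold lower in rescued than in mutant (adjusted p = 0.0203) and 1.3-fold higher in rescued than in WT (adjusted p = 0.038). Fzd4 and Fzd1 therefore lay on opposite sides of their WT levels in the mutant. Between rescued and mutant, the Fzd1 call was lost without mutant replicate 1 or 3 or rescued replicate 2 or 3 (adjusted p from 0.0538 to 0.0781) and the Fzd4 call without mutant replicate 1 or 3 or rescued replicate 1 or 3 (adjusted p from 0.0518 to 0.0628); between rescued and WT, the Fzd1 call was lost without WT replicate 2 or 3 or rescued replicate 1, 2 or 3 or with Y-linked expression as a covariate (adjusted p from 0.0511 to 0.119).

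Fzd7, a receptor common in epithelial progenitors, was at 8.69, 8.44 and 8.44 in WT, 8.20, 8.39 and 8.21 in mutant and 8.47, 8.41 and 8.34 in rescued pools, and Fzd8, another receptor, at 7.93, 7.99 and 7.85 in WT, 7.68, 7.74 and 7.74 in mutant and 7.68, 7.77 and 7.71 in rescued pools. In both genes every mutant pool lay below every WT pool. Both had small differences between mutant and WT, −0.26 for Fzd7 (SE 0.09, adjusted p = 0.0471) and −0.21 for Fzd8 (SE 0.06, adjusted p = 0.0274). Lrp5, a co-receptor, rose in the mutant by a similar amount: it was at 10.00, 10.02 and 9.87 in WT, 10.15, 10.32 and 10.22 in mutant and 9.98, 10.15 and 10.06 in rescued pools (mutant minus WT 0.27, SE 0.07, adjusted p = 0.02). Its partner Lrp6 was not called, with means of 10.88 ± 0.04 in WT, 10.97 ± 0.06 in mutant and 10.83 ± 0.03 in rescued pools (each with SD, n = 3) and a 95% interval of −0.04 to 0.23 between mutant and WT, and neither was its other row (adjusted p = 0.186). Fzd2, Fzd3, Fzd5, Fzd6, Fzd9 and Fzd10 were not called in any comparison, and their mutant minus WT differences lay between −0.17 and 0.17. Fzd6, a receptor of planar cell polarity in skin, had levels of 11.35, 11.35 and 11.21 in WT, 11.12, 11.15 and 11.12 in mutant and 11.02, 11.02 and 11.20 in rescued pools, with both Dstn mutant groups below WT in every pool (adjusted p = 0.1 for mutant and 0.0713 for rescued against WT). Fzd10os, the antisense RNA gene, was at 6.76, 7.04 and 6.87 in WT, 6.71, 6.62 and 6.81 in mutant and 6.65, 6.76 and 6.71 in rescued pools and was not called; whether the array separates it from Fzd10 by strand is not given here. The Fzd7 call was lost without WT replicate 1 or 2, mutant replicate 1 or 3 or rescued replicate 1, 2 or 3, after quantile normalisation, after centring on the array medians, in a fit of only the 6 arrays compared, with the replicate block or with Y-linked expression as a covariate (adjusted p from 0.0541 to 0.15), the Fzd8 call without WT replicate 1 or 2 or mutant replicate 1, 2 or 3 or after quantile normalisation (adjusted p from 0.0508 to 0.1), and the Lrp5 call without WT replicate 3 or mutant replicate 2 or 3 or with Y-linked expression as a covariate (adjusted p from 0.0506 to 0.0852).

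In the mutant, 4 of the 10 secreted inhibitors fell and 2 rose, or 60.0%, against 31.6% of all genes called. Where genes below the median intensity were left out, 53.1% of all genes tested were called. The 10 inhibitors were not tested as a group. Dkk3, a divergent member of the Dkk family, was at 11.61, 11.54 and 11.66 in WT, 10.27, 10.22 and 10.16 in mutant and 10.72, 10.61 and 10.72 in rescued pools. No pool of 1 group reached those of another. Dkk3 was 2.61-fold lower in the mutant than in WT (log2 difference −1.38, SE 0.06, adjusted p = 8.26e-07), 1.38-fold higher in rescued than in mutant (SE 0.06, adjusted p = 0.00138) and still 1.89-fold lower in rescued than in WT (SE 0.06, adjusted p = 4.17e-05). Dkk2, the inhibitor whose absence turns mouse cornea skin-like, was at 10.99, 11.10 and 10.73 in WT, 10.58, 10.03 and 10.09 in mutant and 10.65, 10.32 and 10.60 in rescued pools. Every mutant pool lay below every WT pool, and mutant replicate 1 overlapped the rescued pools. Dkk2 was 1.63-fold lower in the mutant than in WT (SE 0.16, adjusted p = 0.00684); the rescued minus mutant difference of 0.29 (95% interval −0.06 to 0.65) and the rescued minus WT difference of −0.41 (95% interval −0.77 to −0.06) were not called.

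Dkk1, which blocks Lrp5 and Lrp6 and is itself a target of the pathway, was at 9.10, 8.98 and 8.86 in WT, 8.26, 8.49 and 8.55 in mutant and 8.84, 8.59 and 8.78 in rescued pools. The groups did not overlap, with rescued pools between the others. It was 1.46-fold lower in the mutant than in WT (SE 0.10 in log2 units, adjusted p = 0.00248), and its difference of 0.30 between rescued and mutant missed the threshold (95% interval 0.07 to 0.53, adjusted p = 0.0852). Sfrp1, which binds Wnt ligands outside the cell, was at 11.61, 11.52 and 11.61 in WT, 11.33, 11.30 and 11.33 in mutant and 11.48, 11.54 and 11.59 in rescued pools. Its mutant pools lay below all others. Sfrp1 was 1.2-fold lower in the mutant than in WT (SE 0.06, adjusted p = 0.00797) and 1.16-fold higher in rescued than in mutant (SE 0.06, adjusted p = 0.0437). That second Sfrp1 call was lost without WT replicate 1, 2 or 3, mutant replicate 1, 2 or 3 or rescued replicate 1, 2 or 3, after centring on the array medians, in a fit of only the 6 arrays compared, with array weights, with the replicate block or with Y-linked expression as a covariate (adjusted p from 0.0506 to 0.148).

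Frzb and Wif1, a Frizzled-related protein and an unrelated inhibitor that both bind Wnt ligands, were the inhibitors that rose. Frzb was at 5.52, 5.82 and 5.31 in WT, 7.68, 6.98 and 7.30 in mutant and 6.36, 6.20 and 5.97 in rescued pools. All mutant pools were above the median of all rows and all WT and rescued pools below it, and the groups did not overlap. Frzb was at least 3.41-fold higher in the mutant than in WT (log2 difference 1.77, SE 0.19, adjusted p = 7.07e-05). Rescued pools were at least 2.21-fold below mutant pools (log2 difference −1.14, SE 0.19, adjusted p = 0.00337). Between rescued and WT the difference of 0.63 did not pass (95% interval 0.21 to 1.04, adjusted p = 0.0538).

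Wif1 was at 7.34, 7.45 and 7.17 in WT, 8.35, 7.51 and 8.55 in mutant and 7.13, 7.30 and 7.43 in rescued pools. Mutant replicates 1 and 3 stood well above every other pool, and mutant replicate 2 lay close to the highest WT pool. Wif1 was 1.76-fold higher in the mutant than in WT (SE 0.23 in log2 units, adjusted p = 0.0201) and 1.81-fold lower in rescued than in mutant (SE 0.23, adjusted p = 0.0357). The row that stood for Sfrp2, another ligand-binding inhibitor, split the mutant pools the same way, at 7.66, 6.73 and 7.93, with 6.85, 6.79 and 6.79 in WT and 6.48, 7.09 and 6.92 in rescued pools, and was not called (mutant minus WT 0.63, 95% interval 0.03 to 1.23, adjusted p = 0.108). The other row of Sfrp2 differed from it in the place of mutant replicate 2 and in the call, not in direction. It was at 6.22, 6.11 and 6.34 in WT, 6.95, 7.28 and 6.82 in mutant and 6.33, 6.43 and 6.39 in rescued pools, and passed the test in a fit of all rows (mutant minus WT 0.79, adjusted p = 0.000517; rescued minus mutant −0.63, adjusted p = 0.00598). Mutant replicate 2 stood apart in the marker lists too. It was the lowest mutant pool in the mean level of blood endothelial (8.04), pericyte (9.02), macrophage (8.21), T cell (6.71), keratocyte (10.88), lens (7.91), iris (6.13) and nerve markers (7.13). It was the highest in corneal epithelial (12.56), conjunctival (10.08) and corneal endothelial markers (10.31). Its level of the sex-linked gene Xist was 6.12, where the other 8 pools had 11.76 to 12.94, and its Y-linked level was 9.77. Sex makeup may therefore differ within the mutant group too. The part of any of these marker lists in the Wif1 and Sfrp2 values was not tested. The Wif1 call between mutant and WT was lost without WT replicate 1 or 3 or mutant replicate 1 or 3 or with Y-linked expression as a covariate (adjusted p from 0.0515 to 0.0725), and that between rescued and mutant without WT replicate 1 or 2, mutant replicate 1 or 3 or rescued replicate 1, 2 or 3, in a fit of only the 6 arrays compared, with the replicate block or with Y-linked expression as a covariate (adjusted p from 0.0503 to 0.12).

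The remaining inhibitors Dkk4, Sfrp4 and Sfrp5 were not called. Dkk4 was at 6.68, 6.71 and 6.69 in WT, 6.55, 6.59 and 6.58 in mutant and 6.81, 6.93 and 6.69 in rescued pools, with a rescued minus mutant difference of 0.23 (95% interval 0.08 to 0.39, adjusted p = 0.0513) at levels close to the median of all rows. Sfrp4 and Sfrp5 lay below that median in every pool, with mutant minus WT differences of 0.04 and 0.02.

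None of the 4 R-spondins was called, and neither was Axin2 or Lef1. The R-spondin levels ran from 5.58 to 7.74, and the mutant minus WT differences of Rspo1, Rspo2, Rspo3 and Rspo4 were 0.14, 0.12, −0.05 and 0.16. Axin2, a negative regulator that beta-catenin itself switches on and that is widely read as a gauge of the pathway, was at 7.84, 7.89 and 7.91 in WT, 7.82, 7.70 and 7.62 in mutant and 7.91, 7.86 and 7.83 in rescued pools. The mutant pools lay below the WT and rescued pools without overlap, but by little: the mutant minus WT difference was −0.17 (95% interval −0.32 to −0.02, adjusted p = 0.084) and the rescued minus mutant difference 0.15 (95% interval 0.00 to 0.31, adjusted p = 0.175). The other row of Axin2 had a mutant minus WT difference of 0.05 (adjusted p = 0.713). Lef1, which pairs with beta-catenin on DNA, was near the median of all rows at 6.81, 6.78 and 6.62 in WT, 6.60, 6.67 and 6.86 in mutant and 6.73, 6.80 and 6.65 in rescued pools, with a mutant minus WT difference of −0.02 (95% interval −0.22 to 0.17).

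The rest of the pathway was read from 8 lists of 81 genes, of which 78 were measured. Between mutant and WT, 15 of the 78 were higher, against 15.1% of all genes, and 23 were lower, against 16.5%. Between rescued and mutant 9 were higher (6.46% of all genes) and 5 lower (6.88%), and between rescued and WT 7 were higher (6.28%) and 12 lower (7.43%). The counts by list that follow are for mutant against WT unless another comparison is named, and are to be read against the same 15.1% and 16.5%; with 3 to 17 genes a list, none was tested as a list. Of 14 transcriptional targets of beta-catenin, 5 were higher and 3 lower in the mutant, and the median difference of the list was 0.04. Sox9, a transcription factor of progenitor cells, was 2.88-fold higher (adjusted p = 1.22e-05) and Myc 1.79-fold higher (adjusted p = 8.32e-05), while Id2, an inhibitor of helix-loop-helix factors, was 2.42-fold lower (adjusted p = 1e-05). In rescued corneas Sox9 was 1.96-fold lower, Myc 1.33-fold lower and Id2 1.9-fold higher than in the mutant (adjusted p = 0.000786, 0.0155 and 0.00032). All of them still differed between rescued and WT. The log2 differences were 0.56 for Sox9, 0.43 for Myc and −0.35 for Id2 (adjusted p = 0.0143, 0.0128 and 0.0399). Each of these genes also answers to other pathways, and what drove their differences was not tested.

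Of 17 genes of Dishevelled and the destruction complex, 4 were lower and 2 higher in the mutant, together a share close to the 31.6% of all genes called. Btrc, which marks beta-catenin for breakdown, was 1.89-fold lower (adjusted p = 7.35e-06), Amer1, which recruits the complex to the membrane, 1.69-fold lower (adjusted p = 0.000111) and the scaffold Apc 1.47-fold lower (adjusted p = 0.00018). Beta-catenin itself, Ctnnb1, which was picked after its values were seen, had a difference of 0.10 (95% interval −0.02 to 0.23, adjusted p = 0.217). Of 13 nuclear effectors and repressors 6 were lower and 1 was higher, among them Tcf7l2, 1.36-fold lower (adjusted p = 0.000357), Tcf7l1, 1.23-fold lower (adjusted p = 0.0122), and the co-repressor Tle1, with levels below the median of all rows in each group and a difference of 0.72 (adjusted p = 0.00107).

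Of 7 alternative receptors and co-receptors, 3 were lower and 1 higher in the mutant. Lrp4, a relative of Lrp5 and Lrp6, was at 9.35, 9.36 and 9.15 in WT, 8.18, 7.99 and 8.02 in mutant and 8.84, 8.84 and 9.02 in rescued pools, with the 3 groups apart. It was 2.33-fold lower in the mutant than in WT (adjusted p = 6.51e-06) and 1.79-fold higher in rescued than in mutant corneas (adjusted p = 0.000299). Ptk7, a receptor of planar cell polarity, was 1.45-fold higher in the mutant (adjusted p = 0.000682), and the glypican Gpc4 1.24-fold lower (adjusted p = 0.00808). Of 11 planar cell polarity genes 3 were higher and 3 lower, with the cadherin Celsr2 1.3-fold higher (adjusted p = 0.00505), and Fuz 1.48-fold and Prickle2 1.4-fold lower (adjusted p = 0.000168 and 0.00175).

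Of the 5 R-spondin receptors and turnover genes, Lgr4 and Rnf43 were lower and Znrf3 was higher in the mutant (−0.21, −0.34 and 0.33 in log2 units, adjusted p = 0.0205, 0.00547 and 0.00979). Among 8 other inhibitors, 2 were lower and 2 higher. Dkkl1, a Dkk-like gene, was 1.74-fold lower (adjusted p = 0.00199), Sostdc1, a Lrp-binding inhibitor, 1.43-fold higher (adjusted p = 0.0135) and Igfbp4 1.32-fold higher (adjusted p = 0.0381). The genes for Wnt secretion and lipid handling, Porcn, Wls and Notum, were not called between mutant and WT, and Porcn, the acyltransferase of Wnt ligands, was 1.35-fold higher in rescued than in mutant corneas (adjusted p = 0.00882).

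**Figure D3:**
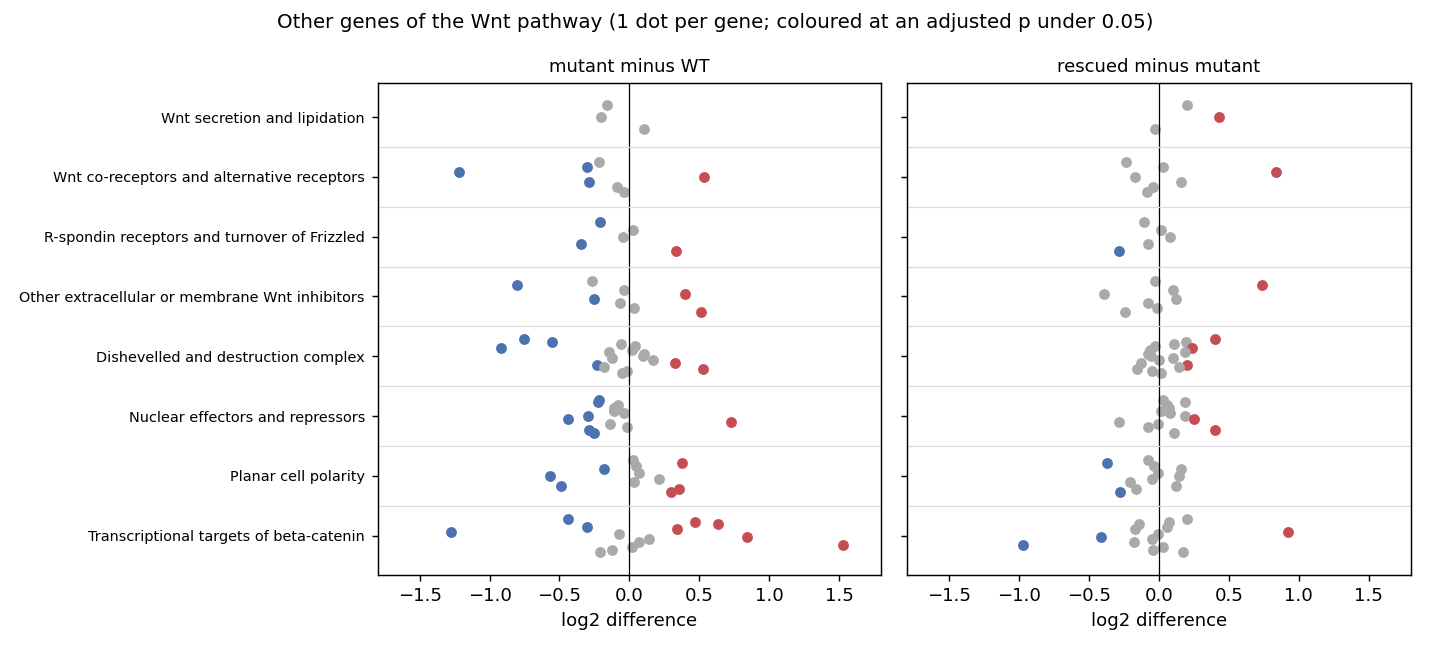
Log2 difference (horizontal axis) of the 78 other measured Wnt pathway genes, 1 dot per gene, by list (vertical axis; height within a list has no meaning), between mutant and WT (left) and rescued and mutant (right). Red dots are higher and blue dots lower at an adjusted p under 0.05; in the bottom list Sox9 (1.53) and Id2 (−1.28) are the outermost dots of the left panel on either side.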

How the data were processed

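Total RNA from the pools was amplified, biotin labelled and hybridised to Affymetrix arrays, per the labels' protocols. The authors deposited 1 value per row and array, normalised between arrays and read here as log2 intensities from their range (2.14 to 14.3). How they corrected background, summarised probes and normalised is not given in the labels. Array medians were 6.75 to 6.78. The table has 41345 rows, of which 23521 have 1 gene symbol in the platform annotation, 1814 several and 16010 none.

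The 22180 genes with 1 symbol were tested with limma 3.58.1 in R 4.3.3 (lmFit and eBayes over all 9 arrays), with Benjamini-Hochberg adjustment over all genes and calls at an adjusted p under 0.05. With 3 pools against 3, an exact permutation test of a single gene could not go below 0.1. The number of arrays limits the precision. In simulated data for mutant against WT over 22180 genes, 50 genes were changed at each size tried. Of those changed by 0.5 on the log2 scale 66% were recovered, of those changed by 1 98%, and 9 other genes were called. Far fewer genes were changed there than the 31.6% called in the real data, and the adjusted p depends on that share. The simulated shares are therefore not the shares that could be recovered here.

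All 48 genes are named, those called with every pool's value. Values of some uncalled genes are also given, chosen after they were seen. Of the other pathway lists up to 3 called genes with the largest difference are named. The members and lists were chosen with earlier results of these data known. Same-numbered pools did not deviate together (r from −0.0157 to 0.0632), so the numbers were not used as pairs. Alternatives covered normalisation, filters on dim genes, choice of row, variance model, samples fitted, array weights, a replicate block, a Y-linked covariate, the threshold and each array left out. Sequences came from the RefSeq promoter table (GRCm38.p6), searched with Python 3.11.15. No genome build is given for the array's annotation.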

Additional observations from a re-analysis of the deposited data

How the results depend on the processing

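Over 22 alternatives, 14 of the 18 genes called between mutant and WT were called in every alternative in which they were tested; the exceptions were Lrp5, Fzd7, Fzd8 and Wif1. This held for 5 of 11 genes between rescued and mutant (Wnt3a, Wnt7b, Wnt9a, Dkk3 and Frzb) and for 3 of 6 between rescued and WT (Wnt2, Fzd4 and Dkk3). No called gene changed direction. Frzb was not tested where genes below the median intensity were left out, and there 10 genes were called between rescued and WT, with fewer genes tested. At an adjusted p under 0.01 there were 5 calls between rescued and mutant and 3 between rescued and WT. Leaving out 1 array at a time gave 14 to 18 calls between mutant and WT, 5 to 11 between rescued and mutant and 3 to 7 between rescued and WT. With the replicate number as a block the counts were 17, 9 and 5 in the same order. Genes near or below the median intensity may lie at background, where an array shows no difference.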
